A study of Caenorhabditis elegans with 2 samples.

Results

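The genes of the CDC-48 segregase and its cofactors are 8 of 19973 nuclear protein-coding genes of Caenorhabditis elegans: cdc-48.1, cdc-48.2, cdc-48.3, ufd-1, ufd-2, ufd-3, npl-4.1 and npl-4.2. They were chosen by name, with the ranks of nearby regions in these lists already known, so the signal values, ranks and q values below are a description and were not tested. For each gene, the regions whose summit lay in the gene or within 5 kb of it were read from the pooled list and from the list of each replicate. The data are chromatin immunoprecipitation followed by sequencing (ChIP-seq) of a PHA-4 protein tagged with enhanced green fluorescent protein (eGFP). The fusion is carried by the transgene wgIs37 in strain OP37, which has the unc-119(ed3) allele, and whole young adults of both sexes were pooled. The labels name pha-4 as the antibody target and give neither the promoter nor the copy number of the transgene. There was 1 group with 2 biological replicates, so no condition is compared, and all cells of the animal contribute to each value.

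CDC-48, called p97 or VCP in mammals, is a ring-shaped ATPase that pulls ubiquitin-tagged proteins out of membranes, complexes and chromatin so that the proteasome can degrade them. Adaptors such as the UFD-1 and NPL-4 pair bring it its substrates, and other cofactors lengthen, trim or bind the ubiquitin chain. PHA-4 is a FoxA-type forkhead factor best known for making pharynx in the embryo and for its part in adult lifespan under dietary restriction. The lists were made by the authors, who gave each region a signal value. Its scaling is not stated, so regions were ranked within a list and signal values were not compared between lists. The optimal list, made by the authors with a threshold on the irreproducible discovery rate (IDR), contained 839 peaks, and these were the 839 strongest of 24890 regions in the pooled relaxed list. The relaxed lists hold background regions as well as peaks, per the deposited notes.

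The replicates stood apart before any gene was considered. In replicate 2, 7548 nuclear regions reached a q of at most 0.05, whereas in replicate 1 there were 0, with a lowest nuclear q of 0.163, although each list held 30000 regions. The replicate 1 list included 20 mitochondrial regions, which its ranks count, and the replicate 2 and pooled lists had 0. All 839 optimal peaks overlapped a region of replicate 2, at a median rank of 432. In replicate 1, 580 of them (69.1%) overlapped a region, at a median rank of 3482. Ranks in the single replicates are therefore given beside the pooled ranks of the regions the results turn on. Read depth is unknown, and libraries from worms without the tag were not analysed here.

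The sequences at 5 summits carry the comparison between the promoters, and each is 201 bp long with the summit at its centre. They are shown 5′ to 3′ on the strand of the gene, from the WBcel235 assembly (RefSeq), which is ce11. The first 3 are the promoter summits of cdc-48.1 (chrII:10563464-10563664, minus strand), ufd-3 (chrII:9940501-9940701, plus strand) and ufd-2 (chrII:8062334-8062534, plus strand). The fourth is the second-strongest region near cdc-48.1, downstream of the gene and upstream of mnk-1 (chrII:10555584-10555784, minus strand). The last is the weaker region upstream of cdc-48.2 (chrII:8137429-8137629, plus strand), shown because cdc-48.2 is the close paralogue of cdc-48.1. Capitals mark any match on either strand to a forkhead heptamer (TATTTAC or TATTTAT or TATTTGC or TATTTGT or TGTTTAC or TGTTTAT or TGTTTGC or TGTTTGT), to GAGAGAG, to the E-box CACGTG, to the GATA site TGATAA or to CGTCTC.
cdc-48.1 promoter: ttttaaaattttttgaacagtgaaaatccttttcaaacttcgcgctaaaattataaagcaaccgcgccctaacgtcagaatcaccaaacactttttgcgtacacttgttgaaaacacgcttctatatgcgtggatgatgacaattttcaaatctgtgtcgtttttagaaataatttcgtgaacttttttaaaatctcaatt
ufd-3 promoter: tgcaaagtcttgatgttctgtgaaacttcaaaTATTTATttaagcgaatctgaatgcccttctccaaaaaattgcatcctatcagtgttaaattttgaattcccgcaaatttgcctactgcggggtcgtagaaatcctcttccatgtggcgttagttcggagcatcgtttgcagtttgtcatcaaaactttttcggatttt
ufd-2 promoter: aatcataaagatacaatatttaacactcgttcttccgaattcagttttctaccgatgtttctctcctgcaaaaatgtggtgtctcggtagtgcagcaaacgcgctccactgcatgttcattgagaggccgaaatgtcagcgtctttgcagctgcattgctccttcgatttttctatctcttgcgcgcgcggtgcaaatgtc
cdc-48.1 downstream: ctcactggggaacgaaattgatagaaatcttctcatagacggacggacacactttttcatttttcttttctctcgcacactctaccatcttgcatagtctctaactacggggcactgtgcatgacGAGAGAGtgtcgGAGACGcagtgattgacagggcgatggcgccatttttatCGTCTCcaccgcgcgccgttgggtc
cdc-48.2 upstream: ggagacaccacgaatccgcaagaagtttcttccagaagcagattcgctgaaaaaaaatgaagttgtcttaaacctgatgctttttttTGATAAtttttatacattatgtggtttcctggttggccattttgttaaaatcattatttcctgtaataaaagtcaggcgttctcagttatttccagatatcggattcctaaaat

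In the pooled list and in replicate 2, PHA-4 regions ranked highest at the promoters of cdc-48.1, ufd-3 and ufd-2. At the other 5 promoters they ranked lower or were missing, although cdc-48.2 had a region of q = 0.000917 (rank 2727) in replicate 2. In replicate 1 the promoter ranks were 25945 at cdc-48.1, 1271 at ufd-3 and 20105 at ufd-2, and the other 5 had no region there. Among the 839 strongest nuclear regions of a single replicate, 3 of the 8 promoters had one in replicate 2 and 0 in replicate 1. An optimal peak was found in the promoter window, from 1000 bp upstream to 200 bp downstream of an annotated 5′ end, of 2 of the 8 genes, cdc-48.1 and ufd-3, against 3.52% of all protein-coding genes. An optimal peak lay in the gene or within 5 kb of 3 of the 8, cdc-48.2 being added, against 10.9% of all genes. The pooled list had a region of q at most 0.05 in the promoter window of 3 of the 8, with ufd-2 as the third, against 12.8% of all genes, and within 5 kb of 4 of the 8, against 36%. Any relaxed region was found within 5 kb of 8 of 8, against 85.1%, and in the promoter window of 5 of 8, against 38.9%. Since the genes were picked with these ranks known, nothing is read from the distance between these counts and the shares. The 8 genes had 44 distinct pooled regions within 5 kb, of which 5 were in the promoter window of one of them and 8 inside one of them. Counting the windows of any protein-coding gene, 21 of the 44 were in a promoter window, 10 were intergenic, 9 in coding exons, 3 in untranslated exons and 1 in an intron. The median rank of the strongest region per gene was 2488 over the 8 genes (range 15 to 9491), against 5336 over all genes with a region.

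**Figure D1:**
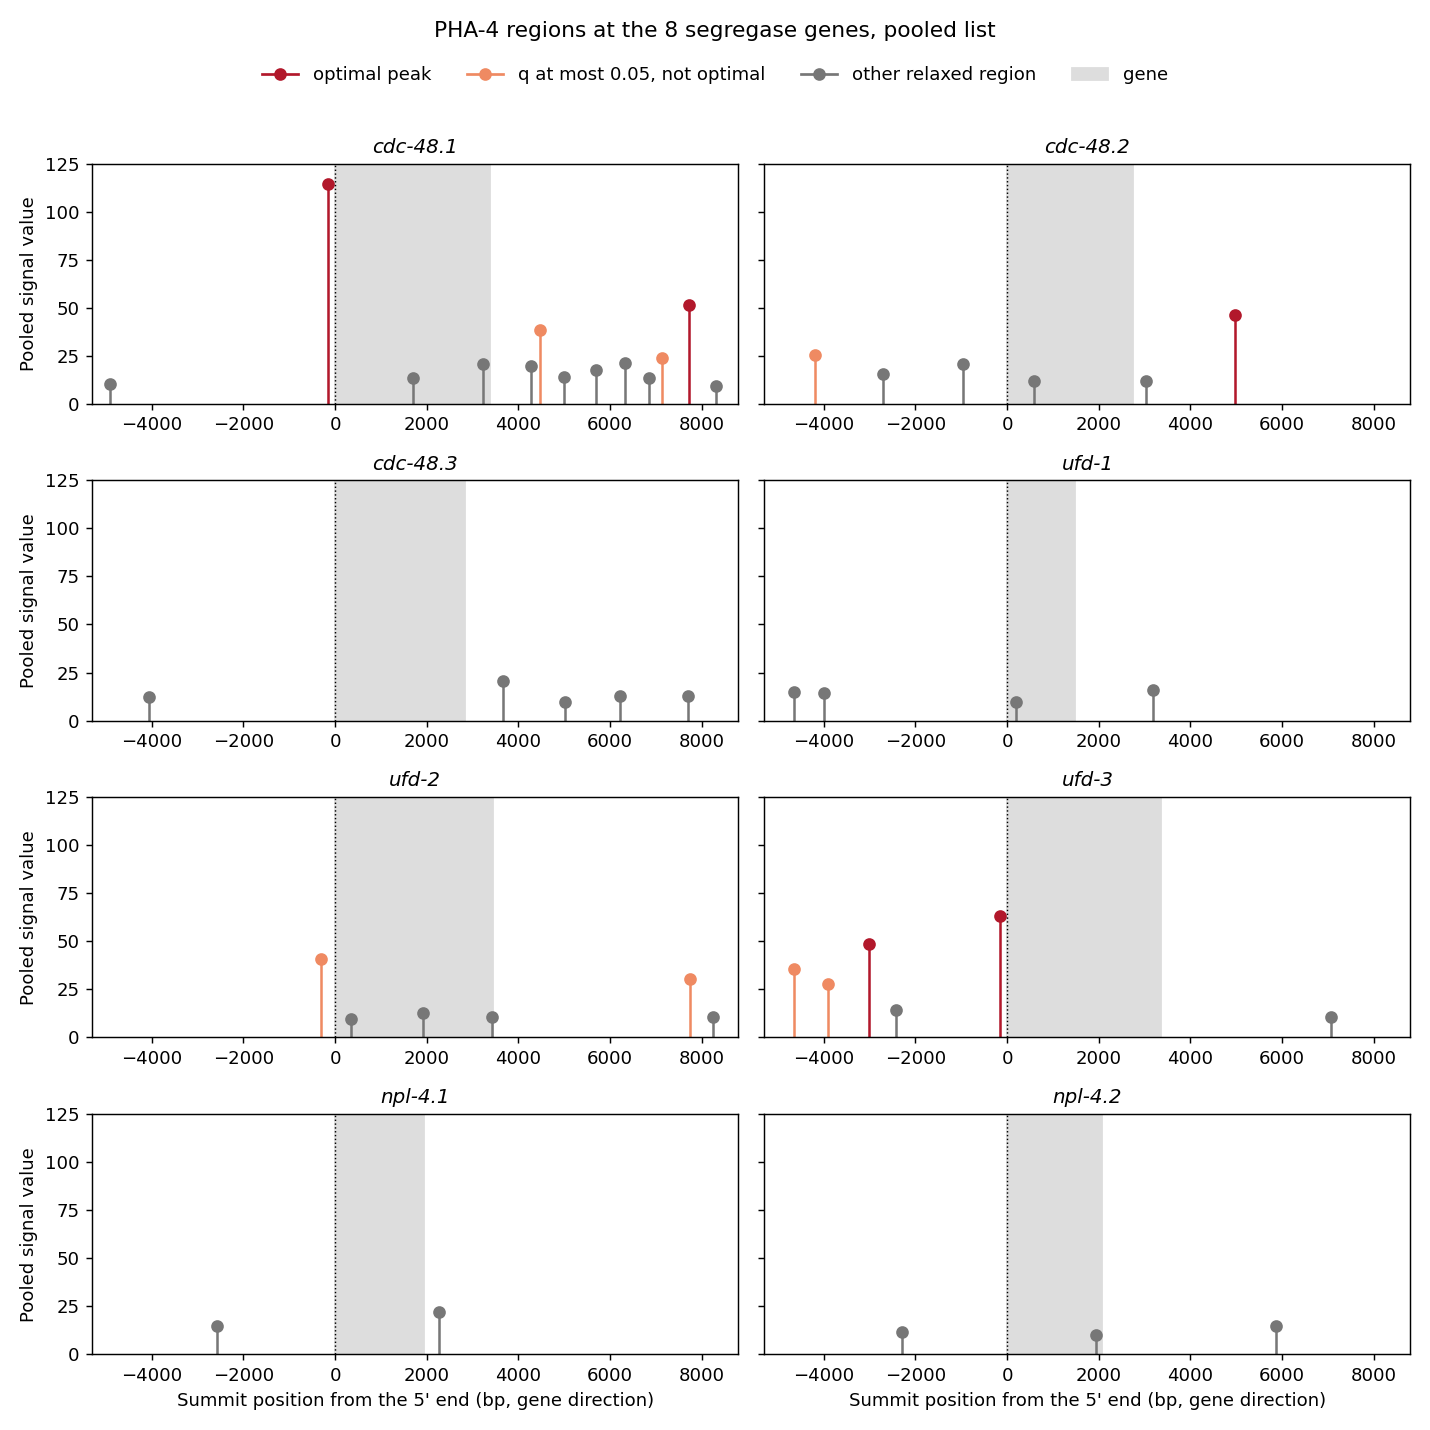
Signal value in the pooled list (vertical axis, the authors' value) against summit position in bp from the outermost annotated 5′ end in the direction of the gene (horizontal axis), for each of the 8 genes. Each stem is 1 region within 5 kb of the gene, dark red for the 5 optimal peaks, orange for other regions with q at most 0.05, grey for the rest, and the shaded box is the gene. The tallest stem, 114.3, stands just upstream of cdc-48.1, and cdc-48.3, ufd-1, npl-4.1 and npl-4.2 have grey stems alone.

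The ATPase itself is encoded by 2 largely redundant paralogues, cdc-48.1 and cdc-48.2, whose coding sequences of 2427 and 2430 bp were identical at 76.6% of aligned bases. At cdc-48.1 (WBGene00007352, chromosome II, 10560036 to 10563407, minus strand) the promoter peak had a signal value of 114.3, rank 15 of the pooled list. It spanned 10563394 to 10563733, and its summit at 10563564 lay 157 bp upstream of the single annotated 5′ end, in the 704 bp between cdc-48.1 and the next gene upstream, C06A1.6. No other protein-coding gene had its promoter window there. At cdc-48.2 (WBGene00008053, chromosome II, 8138496 to 8141230, plus strand) the one pooled region in the promoter window had a signal value of 20.6, rank 4776, with q = 0.0876. Its summit was 967 bp upstream of cdc-48.2, near the edge of the window, and only 611 bp upstream of ctns-1, which lies on the opposite strand. In replicate 2 the promoter ranks were 6 at cdc-48.1 and 2727 at cdc-48.2, the latter with q = 0.000917. A second replicate 2 region lay 214 bp upstream of cdc-48.2, at rank 15565 with q = 0.351. In replicate 1 neither promoter had a strong region, with rank 25945 at cdc-48.1 and no region at cdc-48.2. The ranking of one paralogue above the other thus rests on replicate 2.

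The cdc-48.1 promoter peak was strong in replicate 2 alone. There its summit was at the same base, with a signal value of 125.8, rank 6 of 30000 and q = 0.000293, in a region of 135 bp where the usual width is 340 bp; 19 regions of that list were at most that wide. In replicate 1 the overlapping region had a signal value of 4.4, rank 25945 and q = 0.932. It shared 31 bp with the pooled region, and its summit lay 304 bp away, 147 bp inside the gene. Of the 50 strongest optimal peaks, 45 overlapped a region of replicate 1, at a median rank of 1301 (quartiles 357 and 10601), so the rank at cdc-48.1 was beyond the upper quartile of its strongest neighbours in the list.

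By the same 2 ranks, the optimal promoter peaks most like the one at cdc-48.1 were those of K01G5.10 and tasp-1, which share a peak, and of Y17G9B.5 and rpl-20, which share another. Likeness was the Euclidean distance between log10 ranks in replicates 1 and 2, over the 357 optimal promoter peaks of other genes with a region in both. The K01G5.10 and tasp-1 peak was at a distance of 0.28, with rank 20784 in replicate 1 and rank 11 in replicate 2. The Y17G9B.5 and rpl-20 peak was at 0.35, with rank 16923 in replicate 1 and rank 3 in replicate 2. In the pooled list these peaks ranked 7 and 4, so the cdc-48.1 peak, at 15, was not the only strong one with a low rank in replicate 1.

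Downstream of cdc-48.1 lay a run of further regions. The pooled list held 13 regions within 5 kb of the gene. Of all protein-coding genes, 271 (1.36%) had at least as many, and the median was 3. Of the 13, 9 had their summit in the 4991 bp between cdc-48.1 and the next protein-coding gene, mnk-1. The mnk-1 gene encodes a kinase of the MNK family and lies on the same strand. Only 3 of the 9 had a q of at most 0.05, and the weakest had rank 24303 with q = 0.952. The strongest of the 9 was an optimal peak with a signal value of 51.3 and rank 408, whose summit lay 4352 bp beyond the end of cdc-48.1 and 640 bp upstream of mnk-1. It had the highest rank in replicate 1 of any region near the 8 genes, 122 of 30000 with q = 0.185 and a summit 28 bp away. In replicate 2 it had rank 1264, with a summit 1 bp away. The next had a signal value of 38.2 and rank 1047 with q = 0.00143, and ranks of 1740 in replicate 1 and 1706 in replicate 2. Replicate 1 had a region at 4 of the 9 and replicate 2 at all 9. The interval also holds the snoRNA gene R166.10 and the non-coding RNA gene R166.11, so cdc-48.1 is not the only annotated neighbour of these regions. The nearest optimal peak outside the 5 kb limit was at 8130 bp from cdc-48.1, with a signal value of 42.6.

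At cdc-48.2 the optimal peak within 5 kb was not at its own promoter. Its signal value was 46.3 and its rank 580, and the summit lay 2240 bp beyond the end of cdc-48.2, 8 bp inside ints-11 and 411 bp upstream of rpl-10. The rpl-10 gene encodes a ribosomal protein and ints-11 a subunit of the Integrator complex. The region had rank 522 in replicate 2 and no counterpart in replicate 1. A second region of q at most 0.05 (25.5, rank 2988, q = 0.0166) lay 4182 bp upstream of cdc-48.2, in an untranslated exon of ulp-4, and it had rank 2770 in replicate 1 and rank 6431 in replicate 2.

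**Figure D2:**
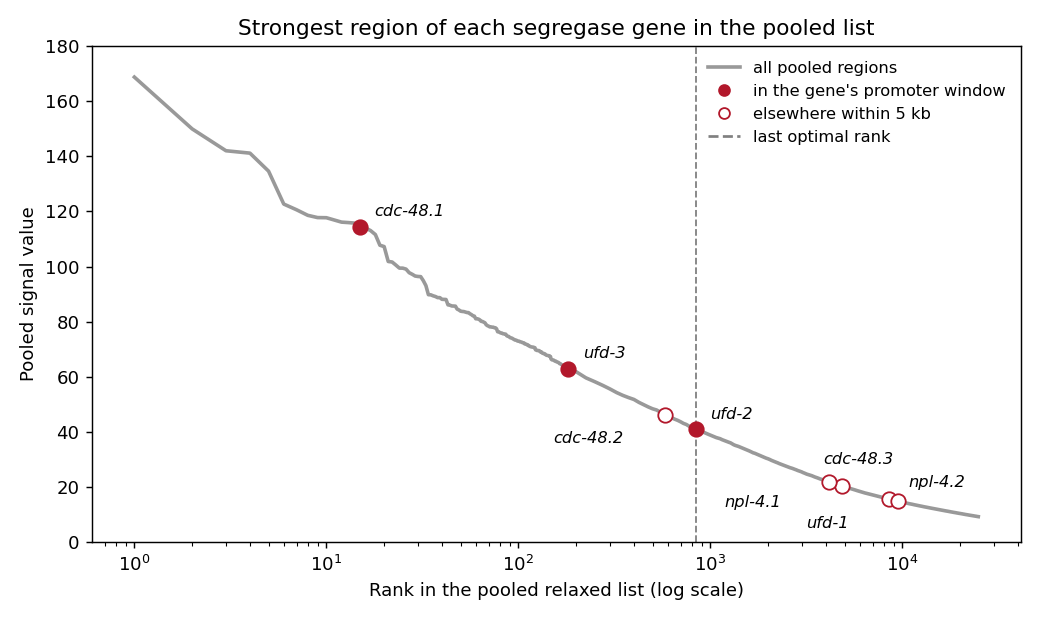
Signal value against rank in the pooled relaxed list (log scale) for all regions (grey line), with the strongest region within 5 kb of each of the 8 genes as a point. Filled points lie in the gene's own promoter window and open points elsewhere, and the dashed line marks the last optimal rank, 839. The points of cdc-48.1 (rank 15), ufd-3 (rank 182) and cdc-48.2 (rank 580, open) are left of the line. That of ufd-2 (rank 841) is just right of it, whereas the 4 genes cdc-48.3, ufd-1, npl-4.1 and npl-4.2 fall between ranks 4134 and 9491.

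The cofactor genes ufd-3 and ufd-2 both carried a region upstream of their 5′ ends. The ufd-3 gene (WBGene00007333, chromosome II, 9940753 to 9944107, plus strand) encodes the homologue of yeast Doa1 and mammalian PLAA, a ubiquitin-binding cofactor of the segregase. Its promoter peak had a signal value of 63.0, rank 182, spanned 9940431 to 9940770, and had its summit at 9940601, 152 bp upstream of the outermost of 3 annotated 5′ ends. Among the 3 promoters with a region in both replicates, this one had the closest ranks. In replicate 2 it had a signal value of 54.1 and rank 248, with the summit 18 bp away, and in replicate 1 it had a signal value of 10.4 and rank 1271 (q = 0.341), with the summit 95 bp away. A second optimal peak near ufd-3 (48.7, rank 495) lay 3011 bp upstream, in the promoter window of C05C10.3, and had ranks of 739 in replicate 2 and 3240 in replicate 1. Weaker regions of q at most 0.05 at 3913 bp and 4641 bp upstream, with signal values of 28.0 and 35.8, were within C05C10.3. The one at 3913 bp had rank 2818 in replicate 2 and no counterpart in replicate 1, and the one at 4641 bp had ranks of 4371 in replicate 2 and 14562 in replicate 1.

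The ufd-2 gene (WBGene00006734, chromosome II, 8062741 to 8066193, plus strand) encodes a U-box enzyme of the E4 type, which lengthens ubiquitin chains on substrates. Its promoter region, 8062264 to 8062603, had a signal value of 40.9 and rank 841 with q = 0.00178, which placed it 2 ranks below the last optimal peak. The regions on either side of that limit had signal values of 40.98 at rank 839 and 40.96 at rank 840, against 40.92 at ufd-2. The summit, at 8062434, lay 307 bp upstream of the gene in the 987 bp that separate it from T05H10.8. In replicate 2 the region had a signal value of 41.6, rank 627, with its summit 1 bp away. In replicate 1 it had a signal value of 4.9 and rank 20105, with its summit 119 bp away. The other region of q at most 0.05 near ufd-2 (30.2, rank 2004) lay 197 bp inside gpcp-2, with rank 4220 in replicate 1 and rank 3616 in replicate 2. The authors' other version of the optimal list, on ce10, held 950 peaks down to a signal value of 39.5, and the ce10 region with the same chromosome and signal value, also at rank 841, was in it. Whether ufd-2 counts among the optimal peaks therefore differed between the deposited builds.

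The pooled promoter summits of cdc-48.1, ufd-3 and ufd-2 lay at the usual distance from the 5′ end, and those of cdc-48.2 and ufd-1 did not. Of the 839 optimal summits, 520 were in a promoter window, and 480 of these were upstream of the nearest 5′ end. Their median distance was 199 bp upstream, with quartiles at 105 and 324 bp. The values of 157 bp at cdc-48.1, 152 bp at ufd-3 and 307 bp at ufd-2 all fell between these quartiles. The peaks of cdc-48.1 and ufd-3 are themselves among the 520. Outside the quartiles were the weaker pooled summits of cdc-48.2, 967 bp upstream, and ufd-1, 81 bp inside the gene. The replicate 1 summits at cdc-48.1, 147 bp inside the gene, and ufd-3, 57 bp upstream, were also outside. That at ufd-2, 188 bp upstream, was between them.

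**Figure D3:**
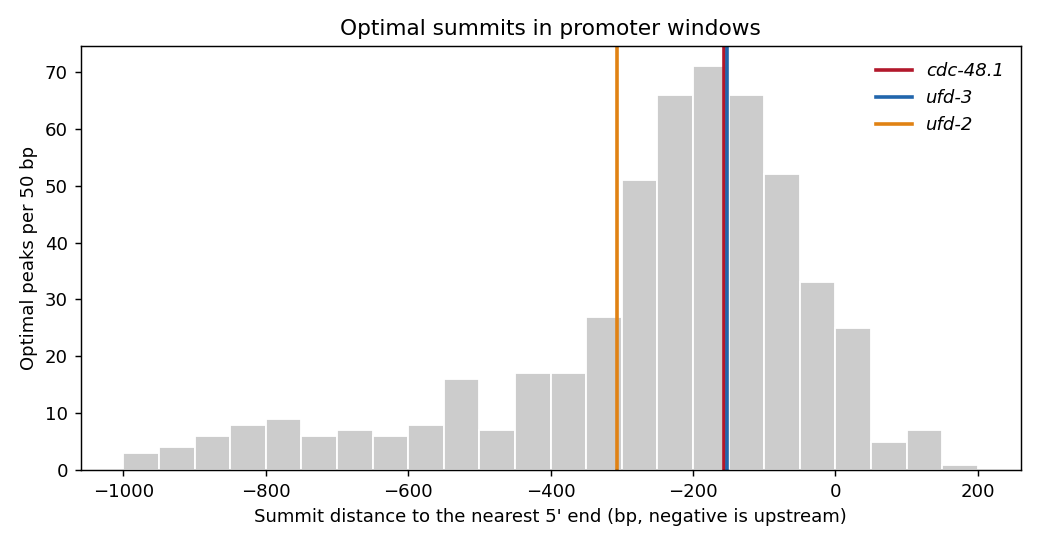
Number of optimal peaks per 50 bp (vertical axis) by summit distance in bp to the nearest annotated 5′ end, negative upstream (grey bars). Of the 520 optimal summits in a promoter window, those at 250 and 433 bp downstream are not drawn, since the bars end at 200 bp. Vertical lines mark the promoter summits of cdc-48.1 and ufd-3 (optimal) and of ufd-2 (not among the 839). The lines of cdc-48.1 and ufd-3, at 157 and 152 bp upstream, nearly coincide.

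The genes for the substrate adaptor had no pooled region of q at most 0.05. The ufd-1 gene (WBGene00006733, chromosome IV, 12329408 to 12330890, minus strand) begins 85 bp from F19B6.1 on the same strand. Its strongest pooled region had a signal value of 15.7, rank 8528 and q = 0.37, and lay 1708 bp beyond the gene, in a coding exon of F19B6.3. It had rank 11541 in replicate 2 and no counterpart in replicate 1. The strongest regions of the single replicates lay elsewhere, in promoter windows of F19B6.1, at rank 5125 in replicate 1 and rank 7876 in replicate 2. In the ufd-1 promoter window the only pooled region lay 81 bp inside the gene from the nearer of 2 annotated 5′ ends. That region had a signal value of 9.5 and rank 23654, near the bottom of the list, with q = 0.941. The partner of UFD-1 is encoded by npl-4.1 and npl-4.2, nearby copies on chromosome II (5631351 to 5633284 and 5622889 to 5624959, both plus strand) whose coding sequences of 1587 bp were identical at 99.5% of bases. Neither had a region of any list in its promoter window. The strongest pooled region near npl-4.1 had a signal value of 22.0, rank 4134 and q = 0.0526, 333 bp beyond the gene, and had rank 6097 (q = 0.0207) in replicate 2 and rank 27932 in replicate 1. The strongest near npl-4.2 was a region inside F59E12.6 and in the promoter window of F59E12.15, with a signal value of 14.9 and rank 9491, which also lay within 5 kb of npl-4.1.

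The near-identity of the npl-4 copies bears on what could be seen there. Of all 50-bp stretches of the gene, 82.6% in npl-4.1 and 79.5% in npl-4.2 occurred more than once in the nuclear genome, compared with 0% in each of the other 6 genes. A read of that length from such a stretch cannot be assigned to one copy, and how the authors treated such reads is not given in the sources used here. The part this had in the low ranks was not tested. Over each gene and 5 kb on each side, repeated stretches were 31.9% at npl-4.1, 32.0% at npl-4.2 and 10.7% at ufd-1. They were 3.7% at cdc-48.1, 1.9% at cdc-48.2 and 0% at cdc-48.3, ufd-2 and ufd-3. The promoter windows alone were not counted. None of the strongest regions of the 8 genes lay on repeated 50-bp stretches.

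The cdc-48.3 gene (WBGene00010562, chromosome I, 8032863 to 8035696, minus strand) encodes a more distant ATPase of the same family, related to yeast Afg2 and known in the worm as an inhibitor of the Aurora B kinase AIR-2. Its coding sequence was identical to that of cdc-48.1 at 61.8% of aligned bases. It had no pooled region in the promoter window, and its strongest region, with a signal value of 20.5, rank 4831 and q = 0.0926, lay 827 bp beyond the gene in a coding exon of aho-3. It had rank 6023 in replicate 2 and no counterpart in replicate 1. In the promoter window replicate 1 had no region, and replicate 2 had a region at rank 24797. Its summit lay 210 bp upstream of cdc-48.3 and 108 bp inside K04G2.4. Inside cdc-48.3, replicate 1 had regions at 260 bp (rank 7042, q = 0.687), 1004 bp (rank 3934, q = 0.554) and 2690 bp (rank 4865, q = 0.607) from the 5′ end. K04G2.4 lies 101 bp upstream on the opposite strand.

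**Figure D4:**
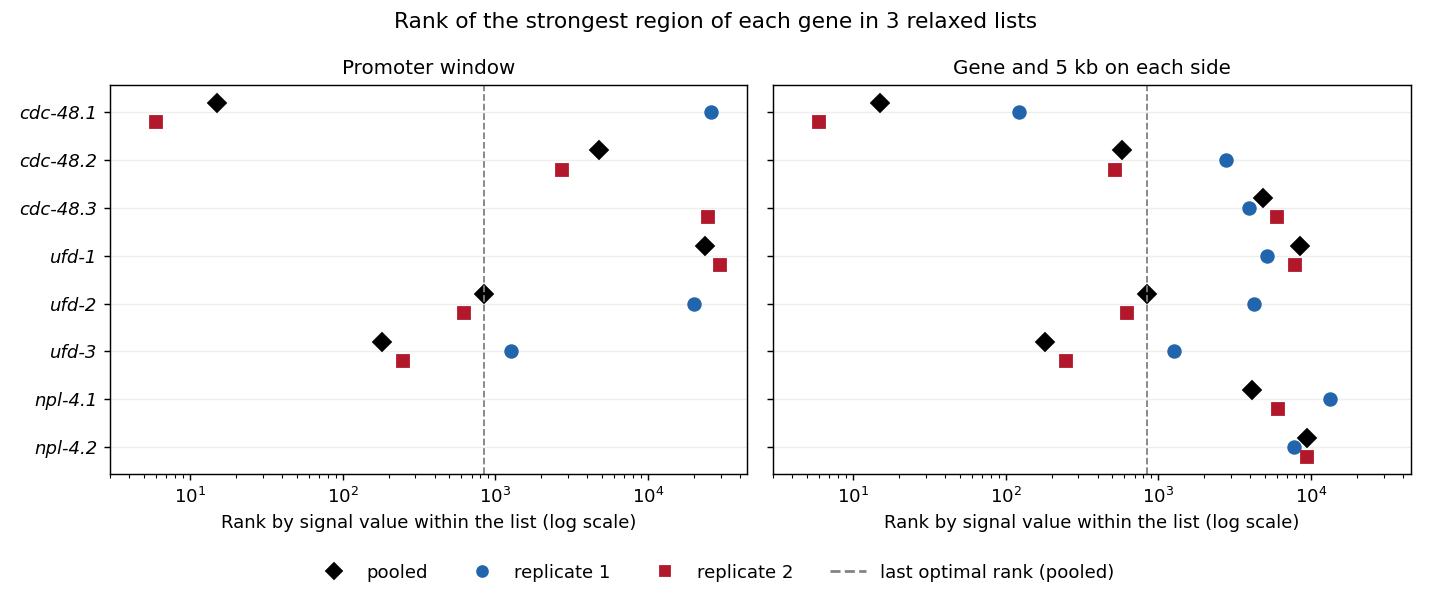
Rank by signal value (log scale, stronger to the left) of the strongest region of each gene in the pooled list (black diamonds), replicate 1 (blue circles) and replicate 2 (red squares), in the promoter window (left) and in the gene and 5 kb on each side (right). A missing symbol means that the list held no region there, and the dashed line marks pooled rank 839. At the cdc-48.1 promoter the replicate symbols are farthest apart, at ranks 25945 and 6, and at the ufd-3 promoter they are closest, at ranks 1271 and 248.

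Across the replicates, the strongest pooled region overlapped a region of both replicates at 5 of the 8 genes (cdc-48.1, ufd-2, ufd-3, npl-4.1 and npl-4.2), against 38.2% of all genes. That share counts genes without a pooled region as not overlapping. With both replicate summits required within 100 bp of the pooled summit, the strongest region did so at 3, since cdc-48.1 and ufd-2 dropped out. The 3 include npl-4.1 and npl-4.2, where the replicate 1 regions ranked low, at 27932 (q = 0.948) and 13332 (q = 0.811). The replicate 2 regions there ranked 6097 (q = 0.0207) and 13693 (q = 0.279). Replicate 2 alone had a region of q at most 0.05 within 5 kb of 6 of the 8 genes, against 52% of all genes, and the exceptions were ufd-1 and npl-4.2. Replicate 1 alone had such a region at 0 of the 8, as it had at no nuclear position. The strongest replicate 1 region within 5 kb ranked 122 at cdc-48.1, 1271 at ufd-3, 2770 at cdc-48.2, 3934 at cdc-48.3, 4220 at ufd-2, 5125 at ufd-1, 7744 at npl-4.2 and 13332 at npl-4.1. In replicate 2 the order was cdc-48.1 (6), ufd-3 (248), cdc-48.2 (522), ufd-2 (627), cdc-48.3 (6023), npl-4.1 (6097), ufd-1 (7876) and npl-4.2 (9385). Both orders begin with cdc-48.1, ufd-3 and cdc-48.2, though at cdc-48.1 and cdc-48.2 through different regions in each replicate.

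None of the searched sites was common to the 3 strong promoter windows. The cdc-48.1 window held 0 matches to the 5 searched sequences, and so did the ufd-2 window, as can be seen from the absence of capitals above. Of all optimal summits, 20% held none within the same 201 bp, as did 48.4% of regions in the weaker 50% of the pooled list. The ufd-3 window held 1 forkhead heptamer, TATTTAT, 62 bp upstream of the summit, and 45.8% of optimal summits and 32.4% of the weaker 50% held at least 1. The optimal peak near cdc-48.2 held 1 as well, TGTTTGT, 58 bp from its summit. Outside the optimal list, forkhead heptamers were also found at the regions of rank 1047 (1 match) and 3488 (2 matches) near cdc-48.1, 2004 near ufd-2, 4831 near cdc-48.3, 23654 at ufd-1 (3 matches) and 9491 near npl-4.2 (2 matches). The region between cdc-48.1 and mnk-1 held GAGAGAG 25 bp from its summit and CGTCTC at 2 places. Among all optimal summits GAGAGAG was at 17.2% and CGTCTC at 24.6%, and among the weaker regions they were at 3.8% and 6.3%. The second ufd-3 peak held CACGTG and CGTCTC, the E-box being at 13.1% of optimal summits and 3.6% of the weaker regions. The cdc-48.2 upstream window held TGATAA 8 bp from its summit, a site at 27.1% of optimal summits and 19.4% of the weaker regions. G and C made up 32.3% of the cdc-48.1 window, 38.3% of the ufd-3 window and 45.3% of the ufd-2 window, against a median of 40.3% at optimal summits (quartiles 36.8 and 44.8) and 35.3% in the weaker 50% of the pooled list (quartiles 30.8 and 40.3).

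The same sites were counted in 300 bp around the outermost annotated 5′ end of each gene, from 250 bp upstream to 50 bp downstream. This window was set without reference to the regions, and other annotated 5′ ends were not searched. The forkhead matches at the ufd-1 region of rank 23654, whose summit is nearer to its other 5′ end, fall outside it. A forkhead heptamer was found at 2 of the 8 genes, ufd-2 and ufd-3, against 52.3% of all protein-coding genes. CACGTG was found at 2 of 8 (ufd-1 and ufd-2, against 5.8%), CGTCTC at 2 of 8 (cdc-48.2 and ufd-2, against 11.2%), TGATAA at 1 of 8 (ufd-2, against 30.2%) and GAGAGAG at 0 of 8 (against 6.8%). The palindrome CACGTG is 1 site on both strands. A match is a run of letters and not a bound site, and its absence says only that these letters are not in the window.

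Other genes of the pathway were read in the same way from a list of 23 genes. Only 1 of the 23 had an optimal peak there, ubq-2, which encodes ubiquitin fused to a ribosomal protein (4.35%, beside the 3.52% of all genes). Its peak had a signal value of 53.5 and rank 339, with the summit 451 bp upstream of ubq-2 in a window shared with frg-1, and ranks of 273 in replicate 2 and 2215 in replicate 1. With peaks given to the gene with the nearest 5′ end alone, the count was 0 of the 23. Among the 839 strongest nuclear regions of replicate 1 alone it was again 4.35%, through ubxn-3 and not ubq-2. Within 5 kb, 5 of the 23 had an optimal peak, against 10.9% of all genes, and 15 of the 23 had a pooled region of q at most 0.05, against 36%. In the promoter window, a pooled region of q at most 0.05 was found for 8 of the 23, against 12.8% of all genes. By class these were 3 of 10 other segregase cofactors, 1 of 7 genes for degradation at the endoplasmic reticulum and 4 of 6 genes for ubiquitin and its shuttle factors. The following were named after their values were seen. The region at ubq-1, the polyubiquitin gene, had a signal value of 39.5 and rank 952, 155 bp upstream, with rank 2292 in replicate 2 and rank 3495 in replicate 1. The region at rad-23, a shuttle factor that carries ubiquitylated proteins to the proteasome, had a signal value of 37.3 and rank 1148, in a window shared with rpn-12, a proteasome subunit gene. It had rank 1198 in replicate 2 and rank 19280 in replicate 1. The region at chn-1, whose product works with UFD-2 in lengthening ubiquitin chains, had a signal value of 30.8 and rank 1910, in a window shared with T09B4.2. It had rank 5146 in replicate 2 and rank 1402 in replicate 1. The regions at ubxn-2 and ubxn-3, cofactors with a UBX domain, had signal values of 24.2 and 23.1, that at ddi-1, a shuttle factor, 23.9, and that at cup-2, of the derlin family, 22.5. In replicate 2 these ranked 3173 at ubxn-2, 8613 at ubxn-3, 3435 at ddi-1 and 4535 at cup-2. In replicate 1 they ranked 1401 at ubxn-2 and 379 at ubxn-3, and there was no region at ddi-1 or cup-2.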

How the data were processed

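ChIP-seq regions of tagged PHA-4 were read from narrowPeak lists of 2 biological replicates. Per the deposited notes, relaxed lists of peaks and background regions were made from each replicate and from the pooled alignments, each with a second input left undescribed, and the optimal list by IDR. The signal value is the authors' own, of unstated scale, and the deposited lists give −log10 of each q value. Which aligner, peak caller and IDR cut-off were used, and the read depth, is not given in the sources used here.

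Coordinates are ce11 (WBcel235), counted from 1; genes are from Ensembl release 115. Summits were assigned with Python 3.11.15 and NumPy 2.4.6, and coding sequences aligned globally with Biopython 1.88. Overlap meant at least 1 bp. Regions on ce10 were matched by chromosome and signal value within 0.1%, and no coordinates were converted. Assignment was checked on artificial regions.

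Named are all 8 genes, genes sharing or nearer to their peaks, listed pathway genes with an optimal promoter peak, and the 3 closest in likeness (4 with a tie). Other pathway genes with a pooled promoter region of q at most 0.05 were named after their values were seen. The genes, lists and motifs were chosen with earlier results of these data known. Alternatives covered distance limits, windows, q, overlap and single replicates. Identity was computed on coding sequences, a choice made after the files were seen; protein sequences were not used here.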

Additional observations from a re-analysis of the deposited data

How the results depend on the processing

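The counts differed mainly with the replicate used. Among the 839 strongest nuclear regions of 1 replicate alone, 1 to 4 of the 8 genes had one within 5 kb and 0 to 3 in the promoter window, replicate 1 giving the lower count each time. A region of q at most 0.05 lay within 5 kb of 0 genes in replicate 1 alone and 6 in replicate 2 alone. The best rank within 5 kb in single replicates ran from 6 to 122 at cdc-48.1, 522 to 2770 at cdc-48.2, 248 to 1271 at ufd-3 and 627 to 4220 at ufd-2. It ran from 5125 to 7876 at ufd-1, 6097 to 13332 at npl-4.1, 3934 to 6023 at cdc-48.3 and 7744 to 9385 at npl-4.2. Only at ufd-3 did both ranks belong to overlapping regions, and elsewhere each replicate had its best rank at a different region. For the cdc-48.1 promoter itself the ranks were 6 and 25945. The promoter summit lay from -157 to 147 bp from the cdc-48.1 5′ end, -306 to -188 bp at ufd-2 and -134 to -57 bp at ufd-3; at cdc-48.1 the replicate 1 summit, at 147, was on the other side of the 5′ end. The cause was not tested. Ranked by q, where 823 pooled regions tie at the lowest value, cdc-48.1, cdc-48.2 and ufd-3 each ranked 1 and ufd-2 ranked 1738. With summits within 100 bp, 3 genes rather than 5 overlapped both replicates. With only the nearest 5′ end, the share of other pathway genes was 0. In the other alternatives run, counts, ranks and distances stayed within 1.5 times. A ce10 match was not unique for cdc-48.2, cdc-48.3, ufd-1, npl-4.1 and npl-4.2, so no ce10 rank is given. No paired analysis was possible because there was 1 group. Unknown depth limits what low ranks mean.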
